A study of Mus musculus with 18 samples.

Results

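The genes described here are Mbd1, Mbd2, Mbd3 and Mbd4 of the methyl-CpG binding domain family, and Zbtb33, which codes for Kaiso, a zinc finger protein that binds methylated CpG. They were taken by symbol, and all 5 were found among the 31053 mouse genes that each deposited matrix lists. Transcripts were counted as unique molecular identifiers (UMIs) with 10x Genomics 3' chemistry in single dissociated embryos of the 129S4/SvJae background at embryonic day 8.5. The 18 libraries were 7 wildtype (WT), 3 Dnmt1 null (Dnmt1 KO), 4 Dnmt3a null (Dnmt3a KO) and 4 Dnmt3b null (Dnmt3b KO). The nulls are inherited alleles present in every cell, and null and wildtype embryos came from natural matings of heterozygous mice. The labels do not say which WT embryo belongs to which of the 3 lines. The comparison of each KO with WT asks whether the transcripts of methylation readers change when an enzyme that writes or maintains methylation is missing.

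In mm10, Mbd1 lies at chr18:74267605-74282732 and Mbd2 at chr18:70568189-70626131, both on the plus strand. Mbd3 lies at chr10:80392539-80399550 and Mbd4 at chr6:115840697-115853371, both on the minus strand, and Zbtb33 at chrX:38189793-38197046 on the plus strand. An antisense gene, Gm44206, overlaps Mbd4 by 1829 bases and held 0.139 CPM in WT embryos. Tmem255a overlaps Zbtb33 by 474 bases on the opposite strand and held 0.923 CPM. CPM values here and below are UMIs of a gene per 1000000 UMIs of the library.

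Dnmt3a and Dnmt3b place methyl groups on unmethylated CpG, and Dnmt1 copies them onto the new strand after replication. The readers act downstream. Mbd2 binds methylated CpG and recruits the NuRD complex, which combines histone deacetylation with nucleosome remodelling. Mbd3 takes the same position in NuRD but binds methylated CpG poorly, so a given NuRD complex holds one or the other. Mbd1 recruits the histone methyltransferase Setdb1 with Atf7ip. Mbd4 is a DNA glycosylase that removes the thymine left when methylated cytosine is deaminated. Kaiso binds methylated CpG pairs through its zinc fingers and recruits the NCoR corepressor, and it binds p120 catenin.

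Promoters were matched for 3 of the 5 genes in RefSeq (GRCm38.p6). Bases upstream of every transcript annotated for them in GENCODE or RefSeq are shown because methylation at a promoter falls on its CpG sites. Capitals mark each CG, read 5′ to 3′ on the strand of the gene, for Mbd3 at chr10:80399551-80399781, for Mbd4 at chr6:115853401-115853469 and for Zbtb33 at chrX:38189543-38189792.
Mbd3: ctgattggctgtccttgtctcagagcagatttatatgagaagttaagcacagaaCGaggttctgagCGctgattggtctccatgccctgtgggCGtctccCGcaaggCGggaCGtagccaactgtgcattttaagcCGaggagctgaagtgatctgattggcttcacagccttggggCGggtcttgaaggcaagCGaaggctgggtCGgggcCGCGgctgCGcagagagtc
Mbd4: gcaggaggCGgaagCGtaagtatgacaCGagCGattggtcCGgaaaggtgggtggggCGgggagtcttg
Zbtb33: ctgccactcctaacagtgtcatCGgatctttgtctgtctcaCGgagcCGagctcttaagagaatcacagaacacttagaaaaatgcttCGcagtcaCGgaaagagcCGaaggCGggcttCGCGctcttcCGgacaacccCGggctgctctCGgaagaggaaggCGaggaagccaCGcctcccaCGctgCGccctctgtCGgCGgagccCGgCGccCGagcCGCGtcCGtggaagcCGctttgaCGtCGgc
The 231 bases of Mbd3 held 13 CG, the 69 bases between Mbd4, which in RefSeq reaches past the end given above, and its neighbour Ift122 held 6, and the 250 bases of Zbtb33 held 27. Over the window of 300 bases that starts 250 bases upstream, CG was found 22 times for Mbd3, 25 times for Mbd4 and 34 times for Zbtb33. As many or more were held by 23.1%, 18.4% and 7.73% of all 32851 promoters, whose median was 7. Methylation was not measured in these libraries, so the letters only describe the windows.

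Libraries held 38742721 to 262580123 UMIs in barcodes with at least 1500 mouse UMIs, and the counts of the 5 genes ran from 442 to 58744 UMIs per library. Dnmt3b KO 1 and Dnmt3b KO 2 shared 12249 cell barcodes, 86.5% and 79.3% of their barcodes, and were summed and counted as 1 embryo. The targeted transcript was lower in Dnmt1 KO, at 15.2 ± 0.379 CPM (SD, n = 3) against 102 ± 10.3 CPM in WT (n = 6), and in Dnmt3a KO, at 9.47 ± 1.81 CPM of Dnmt3a (n = 4) against 29.1 ± 3.33 CPM. Dnmt3b stood at 63.2 CPM in Dnmt3b KO and 61.7 CPM in WT, so the label of Dnmt3b KO is not checked by its transcript. By Y-linked counts, all Dnmt1 KO and Dnmt3a KO embryos were male, 3 Dnmt3b KO libraries were male and 1 was female, and 6 WT were female and 1 was male. WT 2 was the only male WT embryo and Dnmt3b KO 12 the only female KO embryo. Sex and genotype can therefore hardly be told apart, and fits with a Y-linked term rest on these embryos. WT 5 stood apart: it had the fewest UMIs, and some genes with GC-rich 5′ ends are low in it. It was kept out of the WT group (n = 6) and is given beside the calls of the 5 genes in Dnmt1 KO. Because whole embryos were summed, fewer cells of a type and less RNA per cell cannot be told apart in them. The study describes Dnmt1 null embryos as slightly delayed in development, and the part of this delay in the differences below was not tested.

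Mbd2, the methyl-CpG binding subunit of NuRD, was lower in Dnmt1 KO embryos than in the 6 WT embryos. It held 46.9, 48.3, 41.7, 39.2, 50.0 and 50.6 CPM in WT 1, 2, 3, 4, 6 and 7, and 16.6, 14.3 and 17.7 CPM in Dnmt1 KO 1, 2 and 3. No KO embryo reached the lowest of these WT embryos, and the share of all genes with such a gap was not computed. The fitted log2 fold change was -1.45 (95% interval -1.68 to -1.22), 2.74-fold lower, with an adjusted p of 9.5e-08 by edgeR's quasi-likelihood test with Benjamini-Hochberg adjustment over 19010 genes. However, the size of this difference depends on which WT embryos Dnmt1 KO is compared with, and WT 5 did not enter this fit. In WT 5, Mbd2 held 23.1 CPM, 0.501 of the mean of the 6 other WT embryos and nearer to the Dnmt1 KO embryos than to them. Of 9353 genes with at least 5 CPM, 0.321% had a lower ratio in WT 5, and 3.56% lay below all 6 WT embryos as Mbd2 did. Dnmt1 itself was not low in WT 5, at 113.5 CPM, where the 6 other WT embryos ranged from 83.7 to 113.2 CPM. With WT 5 as the only WT embryo, a fit added after the values were seen in which the lone embryo is taken to vary like the other groups, the log2 fold change of Mbd2 was -0.33 (95% interval -0.66 to 0.00). Its adjusted p was then 0.221 by edgeR's quasi-likelihood test with Benjamini-Hochberg adjustment, and the call was lost. This interval does not reach -1.45.

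Other genes low in WT 5 were low in Dnmt1 KO as well. Among 6310 genes whose highest WT value was under 1.5 times the lowest in the 6 WT embryos, 7 others were as low in WT 5 as Mbd2: Khdrbs3, Egln1, Csnk2a2, Brd1, Purb, Ctdspl and Gm45184, with ratios of 0.215 to 0.498. These genes were chosen by their values in WT 5. In Dnmt1 KO against Dnmt3a KO, a comparison that WT 5 does not enter, 6 of these 7 were lower, against 11.3% of all genes tested, and their median log2 fold change was -1.28 (range -2.66 to -1.04). In Dnmt3b KO against Dnmt3a KO, 0 of the 7 passed the test, where 0.2% of all genes were called in either direction, and the median was 0.064. Khdrbs3, for example, held 10.6 CPM in WT 5, 41.6 to 57.0 CPM in the other WT embryos and 5.71 to 11.01 CPM in Dnmt1 KO. The first 200 bases of the annotated transcript had a median GC content of 82.5% in the 7 genes with a value, Mbd2 included, and 64.5% in 6259 genes of the steady set. GC content there was 73.5% for Mbd2, 79.5% for Mbd3, 71.5% for Zbtb33, 58.0% for Mbd4 and 50.0% for Mbd1. The median ratio of WT 5 to the other WT embryos was 1.09 in the 204 steady genes of at least 80% GC and 1.04 in the 2004 below 60%. In Dnmt1 KO against Dnmt3a KO, 22.1% of these 204 genes were lower and 0.98% higher, against 11% and 3.79% of the 2004, with median log2 fold changes of -0.14 and -0.038. The part of any such property of the libraries in the Mbd2 difference was not tested.

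**Figure D1:**
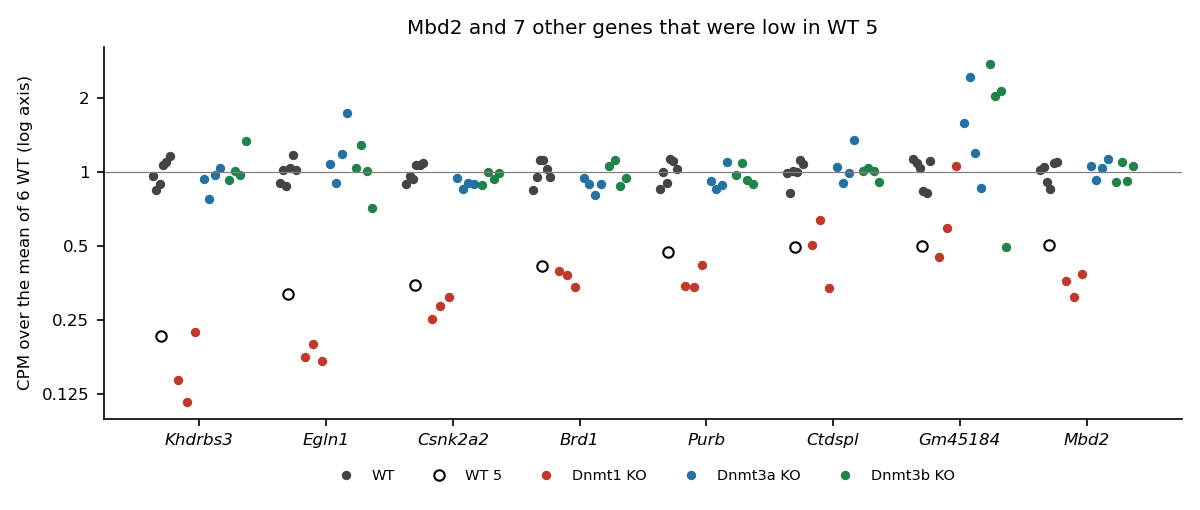
CPM of Mbd2 and the 7 other genes of the steady set that were as low in WT 5, divided by the mean of the 6 other WT embryos (vertical axis, log scale), with 1 point per library. WT 5 (open circles) and the 3 Dnmt1 KO libraries (red) sit below the line at 1 for Mbd2, while Dnmt3a KO (blue) and Dnmt3b KO (green) scatter around it.

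Mbd3, the other NuRD subunit of the family, did not pass the test. Its WT values were 201, 174, 169, 167, 227 and 229 CPM, WT 5 held 211 CPM, and Dnmt1 KO held 141, 158 and 152 CPM. All 3 KO values lay under the lowest WT value of 167 CPM, a gap whose share among all genes was not computed. WT itself spread from 167 to 229 CPM. The log2 fold change was -0.31 (95% interval -0.57 to -0.05), with an adjusted p of 0.066 by edgeR's quasi-likelihood test with Benjamini-Hochberg adjustment. It was -0.30 with WT 5 as the only WT embryo.

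Mbd1, the partner of Setdb1, was also lower in Dnmt1 KO. It held 11.3, 12.6, 11.04, 12.1, 11.3 and 11.9 CPM in the 6 WT embryos and 7.73, 8.20 and 8.04 CPM in Dnmt1 KO 1, 2 and 3. The log2 fold change was -0.49 (95% interval -0.70 to -0.27), 1.40-fold lower, with an adjusted p of 0.0015 by edgeR's quasi-likelihood test with Benjamini-Hochberg adjustment. The adjusted p was 0.0145 without Dnmt1 KO 1, past the threshold of 0.01. In WT 5, Mbd1 held 13.5 CPM, above all 6 other WT embryos, as did 22.2% of the 9353 genes with at least 5 CPM, and the log2 fold change against WT 5 alone was -0.56 (95% interval -0.97 to -0.16). The adjusted p of that fit was 0.0955, so 0 of the 5 genes passed the test against WT 5 alone, where 1.22% of all genes tested were lower and 0.368% higher.

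Mbd4, the glycosylase, differed by less than its spread. Its values were 10.0, 12.5, 13.4, 15.3, 13.6 and 13.1 CPM in WT, 14.8 CPM in WT 5 and 10.7, 10.8 and 13.2 CPM in Dnmt1 KO. The KO values lay within the range of WT. The log2 fold change was -0.10 (95% interval -0.34 to 0.14).

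Zbtb33, which is X-linked, held 7.79, 7.97, 10.7, 12.7, 10.0 and 9.96 CPM in WT, 11.4 CPM in WT 5 and 7.37, 6.88 and 9.03 CPM in Dnmt1 KO. The ranges of WT and Dnmt1 KO overlapped. The log2 fold change was -0.28 (95% interval -0.59 to 0.04) and did not pass the test. It was -0.30 with the male or female state of the embryo, read from Y-linked counts, in the fit. As given above, such a term can hardly separate sex from genotype here. In all, 2 of the 5 genes were lower in Dnmt1 KO and 0 were higher, where 10.5% of all genes tested were lower and 10.7% higher.

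**Figure D2:**
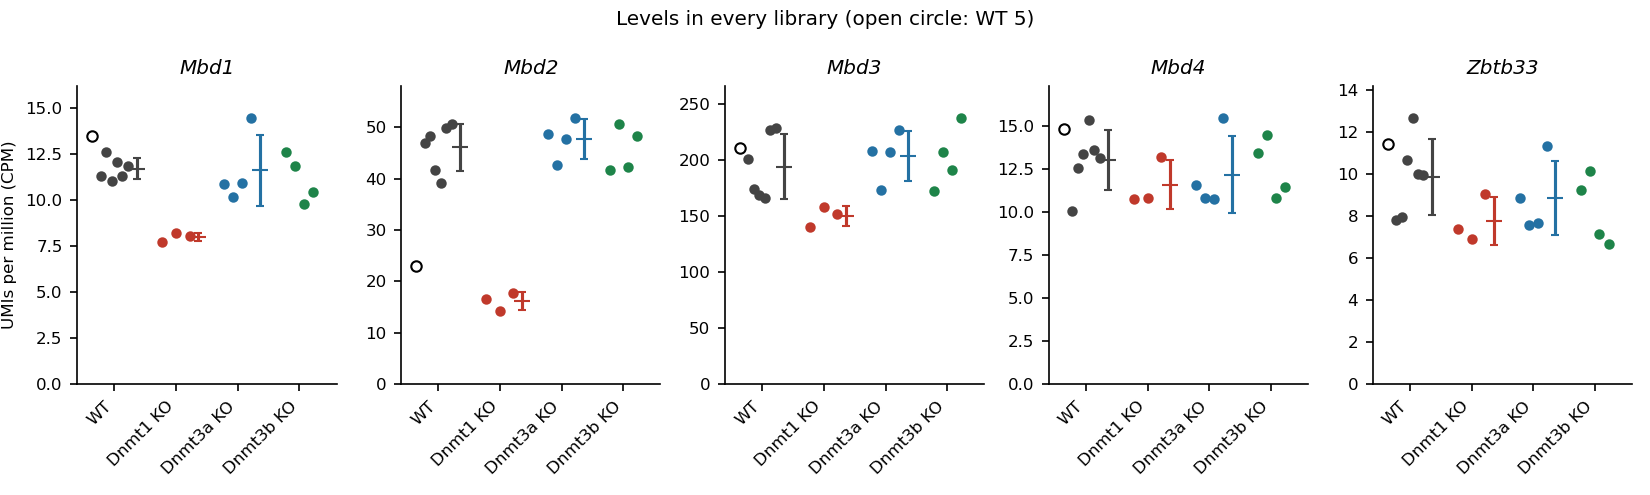
CPM of each gene in every library (points), by group, with the mean and SD beside the points of WT (n = 6, without WT 5), Dnmt1 KO (n = 3) and Dnmt3a KO (n = 4), and no mean drawn for Dnmt3b KO, in which 2 libraries share cells. The open circle is WT 5, which at 23.1 CPM of Mbd2 lies between Dnmt1 KO (14.3 to 17.7 CPM) and the other WT embryos (39.2 to 50.6 CPM).

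In embryos null for a de novo enzyme, none of the 5 genes passed the test. In Dnmt3a KO, Mbd2 held 48.7, 42.6, 47.8 and 51.8 CPM, inside or just above the WT range, and its log2 fold change was 0.04 (95% interval -0.15 to 0.23). Mbd3 averaged 204 ± 22.4 CPM (SD, n = 4), a log2 fold change of 0.06 (95% interval -0.18 to 0.30). Mbd1 averaged 11.6 ± 1.93 CPM, with a log2 fold change of -0.03 (95% interval -0.22 to 0.16). Mbd1 was raised by 1 embryo, since Dnmt3a KO 14 held 14.5 CPM and the 3 others 10.2 to 10.9 CPM. Mbd4 and Zbtb33 had log2 fold changes of -0.11 (95% interval -0.33 to 0.11) and -0.16 (95% interval -0.44 to 0.12). By edgeR's quasi-likelihood test 0 of the 5 genes passed, 0 had an unadjusted p under 0.05 and 0 were called by DESeq2, where 0.158% of all genes tested were called in either direction.

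In Dnmt3b KO, Mbd2 held 41.8, 50.7, 42.2 and 48.4 CPM in libraries 1, 2, 11 and 12, and its log2 fold change was -0.05 (95% interval -0.26 to 0.16). For Mbd3 the log2 fold change was 0.05 (95% interval -0.21 to 0.31), for Mbd1 -0.15 (95% interval -0.36 to 0.06) and for Mbd4 -0.14 (95% interval -0.38 to 0.11). Zbtb33 held 9.25, 10.2, 7.13 and 6.69 CPM, with libraries 11 and 12 under the lowest WT embryo and libraries 1 and 2 within the WT range. Its log2 fold change was -0.35 (95% interval -0.67 to -0.04), with an adjusted p of 0.255 by edgeR's quasi-likelihood test with Benjamini-Hochberg adjustment. By this test 0 of the 5 genes passed, 1 had an unadjusted p under 0.05, and 0 were called by DESeq2, where 1.8% of all genes were called in either direction.

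The KO groups were also compared directly, in contrasts that share their KO embryos with the comparisons to WT. Against Dnmt3a KO, Mbd2 was lower in Dnmt1 KO by a log2 fold change of -1.49 (adjusted p 2.8e-07) and Mbd1 by -0.46 (adjusted p 0.0039), both by edgeR's quasi-likelihood test with Benjamini-Hochberg adjustment. The call of Mbd1 was lost without Dnmt1 KO 1, Dnmt3a KO 13 or Dnmt3a KO 14 and with counts thinned to the smallest library. These are 2 of the 5 genes, against 11.3% of all genes tested that were lower. Against Dnmt3b KO, Mbd2 was lower by -1.40 (adjusted p 1.2e-06 by the same edgeR test), 1 of the 5 genes against 8.27% of all genes. Mbd1 stood at -0.34 there (95% interval -0.58 to -0.09) and did not pass. Dnmt3b KO and Dnmt3a KO differed at 0 of the 5 genes by edgeR, with 0 unadjusted p under 0.05 and 0 by DESeq2, where 0.2% of all genes were called in either direction. The 6 WT embryos enter these comparisons only through the scaling and the spread of the common fit, and WT 5 does not enter them.

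**Figure D3:**
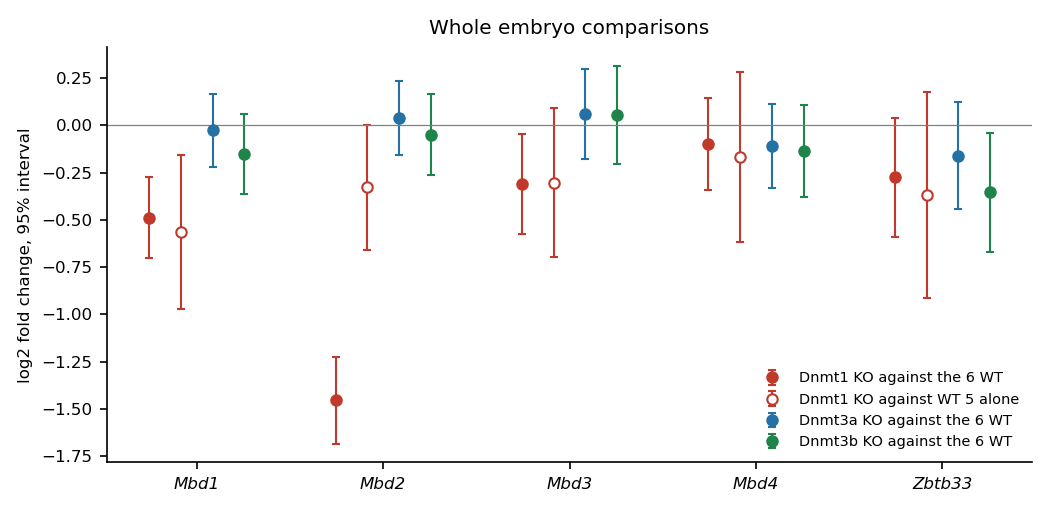
Fitted log2 fold change (vertical axis) with its 95% interval for each gene in whole embryos, for Dnmt1 KO, Dnmt3a KO and Dnmt3b KO against the 6 WT embryos (filled circles) and for Dnmt1 KO against WT 5 alone (open circles). For Mbd2 the value in Dnmt1 KO moves from -1.45 to -0.33 when WT 5 replaces the 6 WT embryos, and for Mbd1 from -0.49 to -0.56.

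Cells were then sorted into classes by marker genes, and the counts of each class were summed per embryo. A class name stands for cells that resemble that type, such as endothelium-like cells for Endothelium. Dnmt1 KO could be compared with WT in 5 classes: Endothelium, Erythroid (primitive red cells), extraembryonic (ExE) mesoderm and ExE endoderm of the yolk sac, and Gut. By the class names, Forebrain and midbrain, Hindbrain and spinal cord and Neural crest made up 0% of Dnmt1 KO cells. Neuromesodermal progenitors made up 0.214% on average, against 6.63% in WT. These shares depend on how clusters were named, and on average 27.2% of Dnmt1 KO cells had no class name. They do not show that a type is absent. The study describes brain, spinal cord, neural crest and neuromesodermal progenitor cells as relatively underrepresented in Dnmt1 null embryos. Mbd2 was lower in all 5 classes compared. These classes come from the same libraries, so here and below a count of classes is not a count of separate replicates. Endothelium held 54.3 to 69.0 CPM in the 6 WT embryos and 15.1, 12.3 and 17.3 CPM in Dnmt1 KO 1, 2 and 3, a log2 fold change of -1.92. In ExE mesoderm it held 56.0 to 82.5 CPM in WT and 20.5, 16.0 and 21.0 CPM in KO, a log2 fold change of -1.81. Erythroid cells held 60.7 to 69.7 CPM in WT and 19.2, 14.1 and 33.2 CPM in KO, also -1.81. Gut held 26.0 to 34.3 CPM in WT and 10.2, 6.61 and 13.1 CPM in KO, a log2 fold change of -1.49, from as few as 11 UMIs in a KO embryo. ExE endoderm held 40.7 to 53.0 CPM in WT and 19.1, 16.3 and 21.7 CPM in KO, a log2 fold change of -1.28. Adjusted p-values ran from 4.4e-08 in Endothelium to 1.1e-05 in Gut by edgeR's quasi-likelihood test with Benjamini-Hochberg adjustment. WT 5 again lay between: its Mbd2 levels were 38.0 CPM in Endothelium, 33.9 in Erythroid, 40.5 in ExE mesoderm, 24.3 in ExE endoderm and 17.3 in Gut, below the 6 other WT embryos and above the 3 KO embryos in each class, by less than 1 CPM over Dnmt1 KO 3 in Erythroid. Against WT 5 alone the log2 fold changes were -1.18, -0.80, -0.90, -0.31 and -0.62 in that order, and 0 passed, where 0.465% of all gene and class pairs were lower and 0.19% higher.

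Mbd1, Mbd3 and Mbd4 each passed the test in 1 class. The log2 fold changes of Mbd1 and Mbd3 were negative in 5 of 5 classes, with 3 and 4 unadjusted p under 0.05. Mbd1 was lower in Erythroid, at 12.1 to 15.6 CPM in WT and 10.1, 9.28 and 9.43 CPM in Dnmt1 KO, with WT 5 at 13.6 CPM (log2 fold change -0.69, adjusted p 0.0006 by edgeR's quasi-likelihood test), and had log2 fold changes of -0.22 to -0.36 that did not pass in the other 4. Mbd3 was lower in Gut, at 166 to 237 CPM in WT and 120, 146 and 130 CPM in KO, with WT 5 at 205 CPM (-0.52, adjusted p 0.0048 by edgeR's quasi-likelihood test), and stood at -0.22 to -0.29 elsewhere. The Mbd3 call in Gut was lost with the Y-linked term in the fit (adjusted p 0.07 by edgeR) and without WT 6, Dnmt1 KO 1 or Dnmt1 KO 3. Mbd4 was higher in ExE mesoderm, at 7.21 to 9.61 CPM in WT and 12.2, 12.9 and 12.1 CPM in KO (0.59, adjusted p 0.0006 by edgeR's quasi-likelihood test). WT 5 held 12.4 CPM of Mbd4 there, as much as the KO embryos, on 18 UMIs, and the call was lost with the Y-linked term (adjusted p 0.0149 by edgeR). In Gut, Mbd4 stood at -0.57 and did not pass (adjusted p 0.024 by edgeR). Zbtb33 passed in 0 classes, with 0 unadjusted p under 0.05 and log2 fold changes of 0.11 to 0.25.

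Over the 25 gene and class pairs, 7 were lower and 1 was higher by edgeR's quasi-likelihood test, 15 had an unadjusted p under 0.05 and 8 were called by DESeq2. Of all gene and class pairs tested, 8.97% were lower and 8.36% higher. Whether the Dnmt1 KO difference itself differed between classes was tested with 50 two-sided exact permutation tests over 3 KO and 6 WT embryos, of which 15 had an unadjusted p under 0.05 and 0 an adjusted p under 0.05. Their lowest p of 0.0238 is the smallest this design allows, and adjusted it was 0.085, so no pair of classes was shown to differ or to be alike. Cells of a class did not lie in the same clusters: 72.7% of ExE endoderm cells of Dnmt1 KO fell in a cluster that held 0.666% of those of the other groups, and 87.6% of ExE mesoderm cells in one that held 0.411%. In Erythroid the KO cells were mostly in cluster 30 (83.6%, against 11.3%), in Gut in cluster 28 (87.2%, against 31.8%) and in Endothelium in cluster 15 (54.5%, against 43.3%). Cells of cluster 15 had a median UMI count 1.13 times that of their libraries. For cluster 14, which held 45.3% of Endothelium cells of the other groups, it was 0.205 times.

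**Figure D4:**
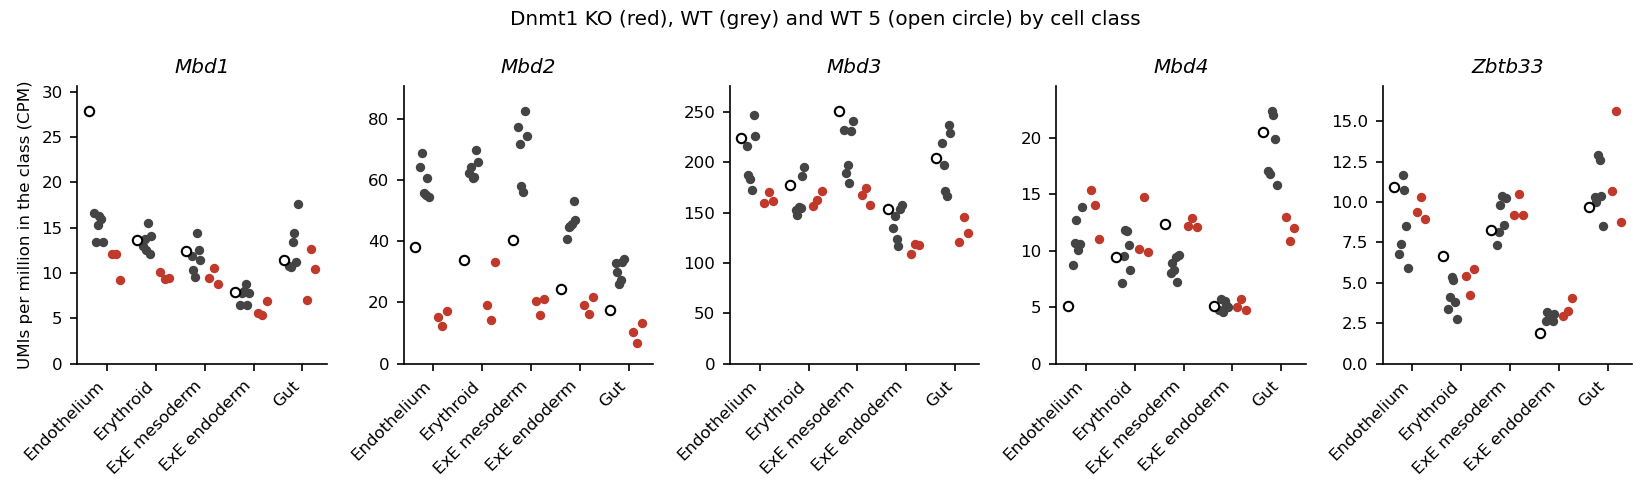
CPM of each gene in the 5 classes compared between Dnmt1 KO (red, 3 embryos) and WT (grey, 6 embryos), with 1 point per embryo and WT 5 as an open circle. Mbd2 in Dnmt1 KO lies under every WT point in each class, while Zbtb33 overlaps in all 5.

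The levels in summed Dnmt1 KO embryos were set beside those that the shares of the classes alone would give. Each class was held at the level of its UMIs summed over WT. The UMI shares of the classes in Dnmt1 KO would then give 50.8 CPM of Mbd2, against 16.4 CPM observed in the same cells. For Mbd1 the values were 11.5 and 8.07 CPM and for Mbd3 198 and 152 CPM. For Zbtb33 they were 7.76 and 7.94 CPM, close to each other, and for Mbd4 10.7 and 11.7 CPM. This calculation was added after the values were seen, and it has no test. Cells without a class name, on average 27.2% of Dnmt1 KO cells, were counted as 1 class. Unnamed clusters 19 and 25 were 97.9% and 98.8% Dnmt1 KO, so their cells were given the level of other WT cells. ExE ectoderm made up on average 13.8% of Dnmt1 KO cells, with a range of 4.78% to 31.2% between embryos. Only WT 2 had at least 25 cells of this class among WT embryos. The part of this in the values was not tested.

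ExE ectoderm, the trophoblast class, had at least 25 cells in WT 2 as the only WT embryo and in the 3 Dnmt1 KO embryos, so it has no test. Mbd2 held 54.7 CPM (exact Poisson 95% interval 46.7 to 63.8, counting error only) in WT 2 and 18.7, 14.6 and 25.1 CPM in Dnmt1 KO 1, 2 and 3. Mbd1 held 15.0 CPM (10.95 to 20.1) in WT 2 and 8.75, 9.31 and 7.48 CPM in KO. Mbd3 held 212 CPM in WT 2 and 163 to 185 CPM in KO. Mbd4 held 13.3 CPM in WT 2, within the 11.03 to 14.02 CPM of the KO embryos, and Zbtb33 held 5.34 CPM in WT 2 and 6.11 to 7.48 CPM in KO.

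In Dnmt3a KO and Dnmt3b KO, 17 classes could be compared with WT, which gives 85 gene and class pairs each. In Dnmt3a KO 0 pairs passed by edgeR's quasi-likelihood test, 1 had an unadjusted p under 0.05 and 0 were called by DESeq2, where 0.0121% of all pairs were lower and 0.0783% higher. In Dnmt3b KO 0 pairs passed by edgeR, 9 had an unadjusted p under 0.05 and 0 were called by DESeq2, where 0.0434% of all pairs were lower and 0.596% higher. Zbtb33 made up 6 of the 9: its log2 fold change was negative in 16 of 17 classes, with a median of -0.31 and a range of -0.59 to 0.06. The lowest adjusted p was 0.159, in neuromesodermal progenitors (NMP), by edgeR's quasi-likelihood test with Benjamini-Hochberg adjustment. The classes of an embryo share its library, so they are not separate replicates of this direction.

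In WT embryos UMIs of the 5 genes were counted in all 17 classes that had at least 25 cells in each of 3 or more embryos. Of these classes 1 is called by its cluster, cluster 7, because its leading genes mark more than one kind of mesoderm (Hoxd1, Lhx1 and Osr1 besides Prrx1 and Alx1). Its cells are shallow, with a median UMI count of 0.255 times that of their libraries. Some clusters of named classes are shallower, such as cluster 29 of Surface ectoderm (0.196) and cluster 2 of ExE endoderm (0.213). The part of free RNA in these levels was not measured, so low levels are not read as expression. Levels of different genes are not compared, because counts from 3′ ends depend on the transcript. Mbd2 was highest in ExE mesoderm, at 70.1 ± 10.7 CPM (SD, n = 6), followed by Erythroid (64.0 CPM), Endothelium (59.8 CPM) and Cardiomyocyte (58.8 CPM), which did not differ from their neighbours beyond the larger SD. A gap to Allantois (46.6 CPM) followed, present in 6 of 6 embryos. Gut was lowest, at 30.6 ± 3.36 CPM, 2.29-fold under ExE mesoderm. Mbd3 ran the other way in Erythroid, which was next to lowest at 165 CPM, and was highest in cluster 7 (284 ± 56.3 CPM) and lowest in ExE endoderm (139 ± 16.6 CPM).

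Mbd1 varied from 15.2 ± 1.42 CPM in Endothelium to 7.55 ± 0.925 CPM in ExE endoderm, 2.01-fold. Mbd4 ranged more widely, from 20.3 ± 6.13 CPM in Notochord (n = 4), 19.0 CPM in Gut and 18.9 CPM in NMP to 5.13 ± 0.450 CPM in ExE endoderm, 3.96-fold. Zbtb33 ranged most widely of the 5, at 6.35-fold. It was highest in Notochord (18.1 ± 1.70 CPM, n = 4) and Forebrain and midbrain (16.6 CPM), and dropped from Allantois (7.86 CPM) to Erythroid (4.10 CPM) and to ExE endoderm (2.85 ± 0.226 CPM). ExE endoderm was thus the lowest class for 4 of the 5 genes, with Mbd2 the exception at 46.0 CPM. The share of all genes that are lowest there was not computed, so this is not read as a trait of these genes. CPM in a class is a share of all its UMIs, so it also depends on the other transcripts of the class. Neighbours in the order were mostly closer than the larger of their SDs: of 16 gaps, 1 was wider for each of Mbd1, Mbd2, Mbd3 and Mbd4 and 3 for Zbtb33.

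**Figure D5:**
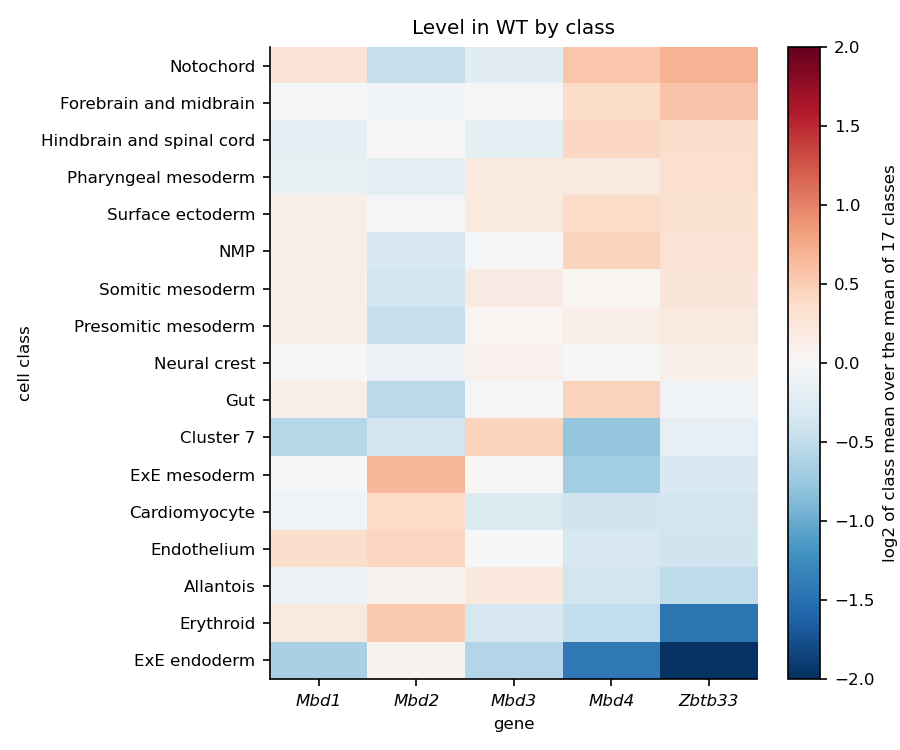
Mean level of each gene in the 17 classes of WT embryos, as the log2 of the class mean over the mean of all 17 classes of that gene (colour), with classes in rows ordered by Zbtb33 and genes in columns. Zbtb33 and Mbd4 are lowest in ExE endoderm, at 2.85 and 5.13 CPM, where Mbd2 is near its own mean at 46.0 CPM.

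Over the 17 class means, which share their 6 libraries, the levels of Mbd4 and Zbtb33 varied together (Pearson r 0.852 on log2(CPM + 1)), and Mbd1 and Mbd4 had r of 0.601. Mbd2 ran against both, with r of -0.534 with Zbtb33 and -0.526 with Mbd4. Among 7572 genes, the pattern of Zbtb33 was most like that of Zfp26, Rnf168 and Zfp41 (r 0.972 to 0.966), and that of Mbd4 most like C2cd3, Alms1 and Zfp646 (0.955 to 0.939). For Mbd3, Hmgb1 and Ncaph were among the most alike (0.877 and 0.873). The nearest were for Mbd1 Lpcat1, Ugcg and Ikbkb (0.844 to 0.842) and for Mbd2 Gosr2, Psmd1 and Ccnd3 (0.819 to 0.794). These are descriptions of 17 points and carry no test.

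Genes that work with the readers were followed in the same whole-embryo comparison of Dnmt1 KO with the 6 WT embryos. Of 12 NuRD subunits, 3 were lower and 0 higher, where 10.5% of all genes tested were lower and 10.7% higher, with a median log2 fold change of -0.15, beside a median of 0.00 over all genes tested. Mta1, a scaffold of the deacetylase, fell from 69.7 ± 6.57 CPM (SD, n = 6) in WT to 34.4 ± 7.19 CPM (n = 3), with a fitted log2 difference of -0.96 (adjusted p 8.9e-06 by edgeR's quasi-likelihood test). Chd3, one of the remodelling ATPases, fell from 24.9 ± 4.01 to 14.1 ± 1.21 CPM, -0.76 (adjusted p 0.00011 by edgeR's quasi-likelihood test). Cdk2ap1, a small subunit, fell from 116 ± 41.1 to 56.8 ± 15.8 CPM, -0.97 (adjusted p 0.0057 by edgeR's quasi-likelihood test). By class, Mta1 was lower in 5 of 5, Cdk2ap1 in 2, and Chd3, Mta2 and Rbbp4 in 1 each. The log2 fold changes of Mta1 by class ran from -0.69 to -0.46, each smaller in size than in whole embryos. Those of Chd3 ran from -0.80 to 0.06 and those of Cdk2ap1 from -1.01 to -0.63. Against WT 5 alone in whole embryos, Chd3 stood at -1.001 and kept its call, whereas Mta1 (-0.58) and Cdk2ap1 (-0.65) lost theirs. The ATPase Chd4 and the deacetylase Hdac1 had log2 fold changes of 0.00 and 0.07.

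Of 6 other genes with an MBD-type domain, 1 was lower, Baz2b (-0.62, adjusted p 0.0079 by edgeR's quasi-likelihood test), a chromatin remodelling cofactor. By class, Baz2b was called in 0 of 5, with log2 fold changes of -0.26 to 0.10, and Mbd5 was higher in 2 of 5 (median log2 fold change 0.56). Of 9 genes of base excision and mismatch repair around Mbd4, 1 was lower, Ung, the uracil glycosylase (-0.49, adjusted p 0.007 by edgeR's quasi-likelihood test). Each of these counts of 1 stands beside the 10.5% of all genes tested that were lower. Baz2b and Ung lost their call against WT 5 alone. By class, Ung was lower in 4 of 5, Xrcc1 was lower in 1 and Apex1 was higher in 1. Of the 3 partners of Mbd1 (Setdb1, Atf7ip and Chaf1a), 0 passed by edgeR in whole embryos, 2 had an unadjusted p under 0.05 and 0 were called by DESeq2. By class, however, Atf7ip was higher in 5 of 5, with log2 fold changes of 0.41 to 0.79, and its value in whole embryos was 0.43 (95% interval 0.14 to 0.72). Setdb1 and Chaf1a were called in 0 of 5. Of the 7 partners of Zbtb33, 0 passed by edgeR in whole embryos, 1 had an unadjusted p under 0.05 and 0 were called by DESeq2. By class, Tbl1xr1 of the NCoR complex was higher in 2 of 5 (median log2 fold change 0.56), Ncor1 was higher in 1 and Gps2 was lower in 1. Of all gene and class pairs, as given above, 8.97% were lower and 8.36% higher.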

How the data were processed

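The authors assigned reads to genes on mm10 with Cell Ranger (per the file headers, version 3.1.0 in 17 libraries and 5.0.0 in Dnmt3b KO 12) and deposited raw UMI counts per gene and barcode. A combined human and mouse reference had been used in 4 libraries, and only mouse genes were kept. Counts of barcodes with at least 1500 mouse UMIs were summed per embryo, and Dnmt3b KO 1 and 2, which share cells, were summed as 1. Groups came from the labels. Genes were tested with edgeR 4.0.16 (R 4.3.3, quasi-likelihood, TMM) in 1 fit of all groups without WT 5, and called at an adjusted p under 0.01. DESeq2 1.42.0, other scalings and filters, covariates, a replicate block and each embryo left out were alternatives.

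Of 162336 deposited barcodes, 128881 had at least 1500 mouse UMIs. For classes, cells had at most 30% mitochondrial and 35% ribosomal UMIs, and doublets were removed with Scrublet, which left 107980 of these. Leiden clusters (scanpy 1.11.5, leidenalg 0.10.2, resolution 2.0, without the genes of the lists) were named from marker genes (cluster 7 is called by its number), and a class needed 25 cells per embryo and 3 embryos per group. The rebuilt names can differ from those of the study. The tests recovered known changes in counts simulated with the same spread for every gene, which was set and not estimated from these embryos. Those changes were larger than most given here, and smaller ones were not simulated, so the power for them is not known.

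The 5 genes, the partner lists and the markers were chosen with earlier results of these data known. Genes named besides the members follow a rule: the targeted genes, up to 3 called genes per list with the largest change, and the 3 genes most like each member over WT classes. A gene and a list that these rules cover are not reported here. Chd4, Hdac1, the list genes given by class and the genes low in WT 5 were named after their values were seen. Each embryo is 1 replicate, and intervals of single libraries cover counting error only.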

Additional observations from a re-analysis of the deposited data

Results flagged for a closer look

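Mbd2 in WT 5 was far from the other WT embryos, at 23.1 CPM, and Mbd1 in the same library, which no comparison with the 6 WT embryos uses, was above all 6 at 13.5 CPM, as were 22.2% of genes. Of 175 groups of 4 to 10 embryos tested for a value far from the rest, 10 held one, where chance gives about 5% of groups. In whole embryos, Dnmt3a KO 14 was high in Mbd4 at 15.4 CPM. By class, it was also high in Mbd1, at 16.7 CPM in Hindbrain and spinal cord and 15.1 CPM in Surface ectoderm. Dnmt3a KO 2 was low in Mbd3, at 187 CPM in Gut, 170.2 CPM in NMP and 189 CPM in Somitic mesoderm. Dnmt3a KO 13 was low in Mbd4 in cluster 7, at 6.11 CPM on 11 UMIs. WT 1 was low in Mbd1 in Cardiomyocyte, at 8.19 CPM, and WT 3 in NMP, at 11.7 CPM.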

How the results depend on the processing

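The call of Mbd2 in Dnmt1 KO held under every alternative of the whole-embryo comparison with WT except WT 5 as the only WT embryo, which was added after the values were seen. That setting gave -0.33 for Mbd2 and -0.56 for Mbd1, 0 genes called in place of 2, and 0 gene and class pairs called. In it, Zbtb33 stood at -0.51 in Erythroid and -0.030 in Endothelium, and Mbd2 in Dnmt3b KO at 1.08. All values here are log2 fold changes by edgeR unless a count or CPM is named, and where no cause is given the cause was not tested. With embryos left out in turn, Mbd1 in Dnmt1 KO ranged from -0.55 to -0.43, and 1 to 2 genes were called, 1 without Dnmt1 KO 1. Against Dnmt3a KO, 1 to 2 were called (1 without Dnmt1 KO 1, Dnmt3a KO 13 or Dnmt3a KO 14), and 1 with counts thinned to the smallest library.

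Values near 0 changed sign. With embryos left out in turn, Dnmt3a KO against WT ranged from -0.11 to 0.017 for Mbd1, from -0.036 to 0.078 for Mbd2 and from -0.012 to 0.12 for Mbd3, and Dnmt3b KO against WT from -0.031 to 0.092 for Mbd3 (0.13 without the summed Dnmt3b KO 1 and 2). Dnmt1 KO against Dnmt3a KO ranged from -0.088 to 0.13 for Mbd4. Dnmt1 KO against Dnmt3b KO ranged from -0.068 to 0.15 for Mbd4 and from -0.046 to 0.17 for Zbtb33 (0.22 without Dnmt3b KO 1 and 2). Dnmt3b KO against Dnmt3a KO ranged from -0.093 to 0.040 for Mbd3 and from -0.065 to 0.063 for Mbd4 (0.099 and -0.086 without Dnmt3b KO 1 and 2). In classes of Dnmt1 KO, Mbd4 ranged from -0.043 to 0.088 in ExE endoderm and from -0.16 to 0.22 in Erythroid, and Zbtb33 from -0.064 to 0.31 in Gut. The Y-linked term gave -0.0034 for Mbd2 in Dnmt3a KO, -0.12 for Mbd4 in ExE endoderm and -0.22 for Zbtb33 in Erythroid of Dnmt1 KO. With WT 5 in the WT group, Mbd2 in Dnmt3b KO stood at 0.047 and the highest class mean of Mbd1 was 16.98 CPM. With Dnmt3b KO 1 and 2 kept apart, Mbd3 against WT stood at -0.0031 and Mbd4 against Dnmt3a KO at 0.020. Scaling to library totals gave -0.068 for Mbd4 against Dnmt3a KO, and -0.060 for Mbd4 and -0.017 for Zbtb33 against Dnmt3b KO, in Dnmt1 KO. A term for the reference gave -0.072 and -0.017 for the first 2 of these. Mbd3 in Dnmt3b KO against Dnmt3a KO was 0.0024 with WT 5 in, 0.0068 with DESeq2 or RLE scaling, 0.013 with thinning, and 0.020 with library totals or the reference term. Another scaling shifted the median of all genes by at most 0.0941.

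Correlations of the deviations of same-numbered libraries were 0.12, -0.03 and -0.25 for WT with Dnmt1 KO. They were 0.21 and 0.10 for WT with Dnmt3a KO and -0.22 and 0.10 with Dnmt3b KO. Pairs with different numbers reached 0.44 (WT 1 with Dnmt3a KO 13) and -0.37 (WT 3 with Dnmt3a KO 13). These values do not show what the numbers stand for, and no pairing was used. With a replicate block all the same, 1 gene was called in Dnmt1 KO, Mbd1 stood at -0.54 (adjusted p 0.0283 by edgeR), Mbd2 in Dnmt3a KO at -0.044, and in Dnmt3b KO Mbd3 at -0.13, Mbd4 at 0.14 and Zbtb33 at 0.11. In the lists, the calls of Baz2b, Cdk2ap1 and Ung in Dnmt1 KO and of Dnmt3a in Dnmt3a KO were lost under several alternatives. Of 2459 values recomputed for 103 results, 235 moved, changed sign or crossed the threshold.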
